A study of Arabidopsis thaliana with 4 samples.

Results

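The 9 ATG8 genes of Arabidopsis thaliana, ATG8A to ATG8I, encode the small ubiquitin-like proteins that are attached to autophagosome membranes. They were taken as every gene on the array whose annotated symbol begins with ATG8 or APG8, which gave 9 genes with 1 probe set each among 13286 loci with a named probe set. The symbol APG8H of the annotation belongs to AT3G15580, which the current gene table also lists as ATG8I; it is called ATG8I here, and ATG8H is AT3G06420. APG8A is AT4G21980 and is called ATG8A. The names of all 9 probe sets end in _at, with none of the suffixes that mark probes shared between genes in the array's design. Paralogues are alike in sequence, and cross-hybridization between them was not tested.

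Col-0 plants, a laboratory accession, were grown in soil mix under continuous light at 22 °C. Axillary buds were harvested before decapitation, the removal of the main shoot apex, and axillary shoots 24 h after it. Each group had 2 ATH1 GeneChips, which are short-oligonucleotide arrays read out as a signal per probe set, and both groups share accession, growth conditions and array type. Whether arrays 1 and 2 of a group stem from different plants is not stated in the labels, so each p-value covers the spread between arrays alone, and that spread may be technical.

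Autophagy delivers cytoplasm, proteins and organelles to the vacuole for breakdown and is known in plants for recycling nutrients during carbon or nitrogen shortage and in senescing leaves. The protease ATG4 trims ATG8 to expose a carboxy-terminal glycine, ATG7 and ATG3 act as its activating and conjugating enzymes, and an ATG12–ATG5 conjugate with ATG16 helps to attach it to the lipid phosphatidylethanolamine. Lipid-bound ATG8 sits on the growing autophagosome, where it binds cargo receptors such as NBR1. By sequence, ATG8A to ATG8D and ATG8E to ATG8G form neighbouring groups, while ATG8H and ATG8I stand apart and end at the glycine, so that they need no trimming. Transcript levels say nothing direct about autophagic flux, which depends on protein and lipidation.

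Shoots taken 24 h after decapitation had lower signals than the buds taken before it throughout the ATG8 family. For 9 of 9 genes both shoot arrays lay below both bud arrays, an arrangement found at 31.9% of all probe sets without controls and 35.5% of those tested. Of the 8 genes tested, 6 fell, 0 rose and 2 did not pass at an adjusted p of 0.05 (limma with Benjamini-Hochberg adjustment over 13648 probe sets). Among all probe sets tested, 12.0% fell and 10.2% rose, together 22.1%. At an unadjusted p under 0.05, 8 of the 8 were lower and 0 higher, against 20.5% lower and 16.8% higher among all probe sets tested. The median log2 difference of the 8 genes was −0.93, against −0.06 for all probe sets tested. Levels are signals of different probe sets, whose brightness also depends on the probes, so the genes are compared by their change and are not ranked by level.

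**Figure D1:**
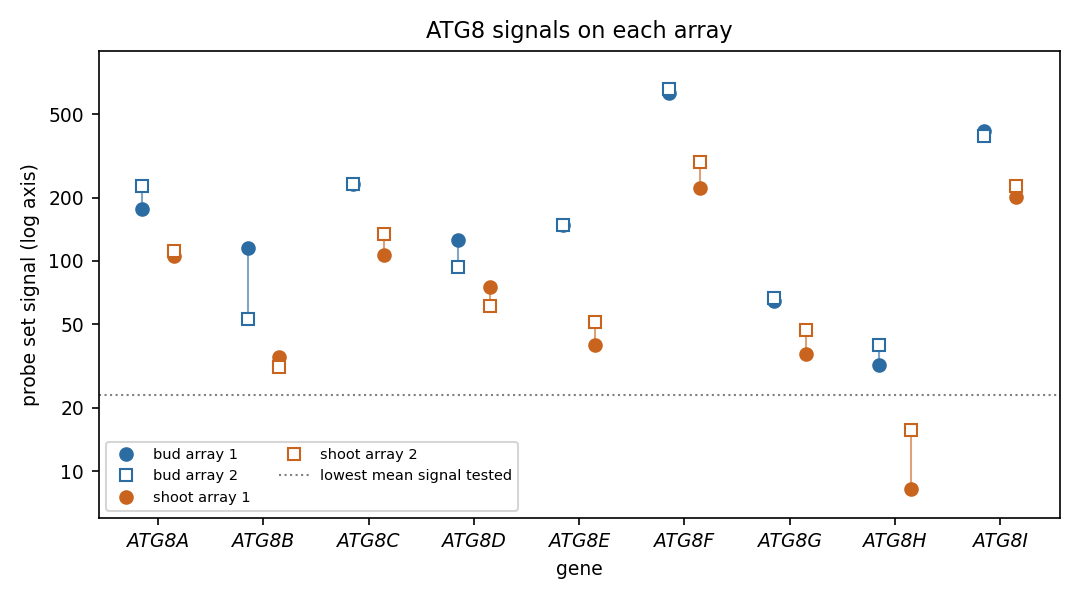
Probe set signal (log axis) of each ATG8 gene on bud arrays 1 and 2 (blue) and shoot arrays 1 and 2 (orange), with array 1 filled and array 2 open; the dotted line marks the lowest mean signal tested, 23.1. For every gene both orange points lie below both blue points, with the narrowest gap at ATG8D and both shoot points of ATG8H under the dotted line.

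The design and the arrays limit how these differences can be read. The study has no intact plants harvested alongside the shoots, so decapitation, wounding, further age and tissue make-up cannot be told apart. In bulk tissue, fewer cells of a type and less RNA per cell cannot be told apart either. An actin control, read as its 3′ over its 5′ signal as a sign of RNA quality and labelling, moved with the groups: it was 1.66 and 1.38 in buds and 0.990 and 1.14 in shoots. An older actin control moved further, from 5.81 and 6.67 to 2.13 and 3.19, while GAPDH overlapped between the groups (1.198 and 1.081 against 1.142 and 0.938). The part of these shifts in the ATG8 result was not tested. Having 2 arrays in each group limits the precision of all values.

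ATG8E, in the group with ATG8F and ATG8G, had the smallest p of the family. It read 148.2 and 148.3 in buds but 39.8 and 51.2 in shoots. The bud arrays were nearly equal, and even the higher shoot array lay 2.90-fold below the lower bud array. ATG8E fell 3.29-fold (95% interval 2.29 to 4.72; limma log2 fold change −1.72, adjusted p = 0.00385, n = 2 in each group). Only 1.80% of all tested probe sets had a more negative change.

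ATG8F gave 627 and 657 in buds and 223 and 294 in shoots. The shoot arrays differed by 1.32-fold from each other, less than the 2.13-fold gap between the groups. ATG8F fell 2.51-fold (95% interval 1.78 to 3.53; log2 fold change −1.33, adjusted p = 0.00653 with limma), and 3.96% of tested probe sets had a more negative change. Without shoot array 1 its adjusted p was 0.0514.

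ATG8G, the remaining gene of that group, was dimmer, at 64.2 and 67.0 in buds and 36.2 and 47.1 in shoots. Its groups were separated by a gap of 1.36-fold, close to the 1.30-fold difference between the shoot arrays. ATG8G had a log2 fold change of −0.67 (95% interval −1.24 to −0.09) and did not pass, with an adjusted p of 0.0909 in limma.

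In the group of ATG8A to ATG8D, 3 of 4 genes fell, beside 12.0% of all probe sets tested. ATG8C had bud signals of 231.2 on each array and shoot signals of 107 and 135. ATG8C fell 1.93-fold (95% interval 1.38 to 2.68; log2 fold change −0.94, adjusted p = 0.0170 with limma). Its bud arrays agreed closely, and all of its spread lay in the shoots.

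ATG8A read 177 and 227 in buds and 106 and 112 in shoots, with the spread in the buds instead. ATG8A fell 1.84-fold (95% interval 1.31 to 2.58; log2 fold change −0.88, adjusted p = 0.0236 with limma). This call was lost without bud array 2 (adjusted p = 0.0858), shoot array 1 (adjusted p = 0.122) or shoot array 2 (adjusted p = 0.0631), and with spike scaling (adjusted p = 0.0644).

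ATG8B had the widest replicate spread of the tested members, with 115 and 53.0 in buds and 34.9 and 31.3 in shoots. Its bud arrays differed by 2.18-fold, more than the 1.52-fold gap between the lower bud array and the higher shoot array. ATG8B fell 2.36-fold (95% interval 1.33 to 4.21; log2 fold change −1.24, adjusted p = 0.0429 with limma), and the size of that change rests on the bud array used. The log2 fold change was −0.68 without bud array 1 (adjusted p = 0.203) and −1.80 without bud array 2 (adjusted p = 0.00375). The call was also lost without shoot array 1 (adjusted p = 0.129) or shoot array 2 (adjusted p = 0.119), with quantile normalization (adjusted p = 0.0527) and with no filter (adjusted p = 0.0766).

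ATG8D had signals of 125 and 93.2 in buds and 75.0 and 61.2 in shoots. The groups were closest here, with a gap of 1.24-fold that was smaller than the 1.35-fold difference between the bud arrays. Its log2 fold change of −0.67 (95% interval −1.23 to −0.11) did not pass, with an adjusted p of 0.0829 in limma.

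ATG8I, whose product ends at the glycine, read 417 and 391 in buds and 202 and 227 in shoots. Replicates differed by at most 1.13-fold, and the groups were 1.72-fold apart. ATG8I fell 1.89-fold (95% interval 1.39 to 2.57; log2 fold change −0.92, adjusted p = 0.0153 with limma).

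ATG8H, its nearest relative, was the single member below the filter on dim probe sets and was not tested with the others. Its signals were 31.9 and 39.6 in buds and 8.19 and 15.6 in shoots. Both shoot signals lay under 23.1, the lowest mean signal tested, and differed by 1.91-fold from each other, so a fold change of this gene is uncertain in size. With no filter it had a log2 fold change of −1.65 (95% interval −2.63 to −0.67) and an adjusted p of 0.0493 in limma over 22746 probe sets, of which 5.60% fell.

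**Figure D2:**
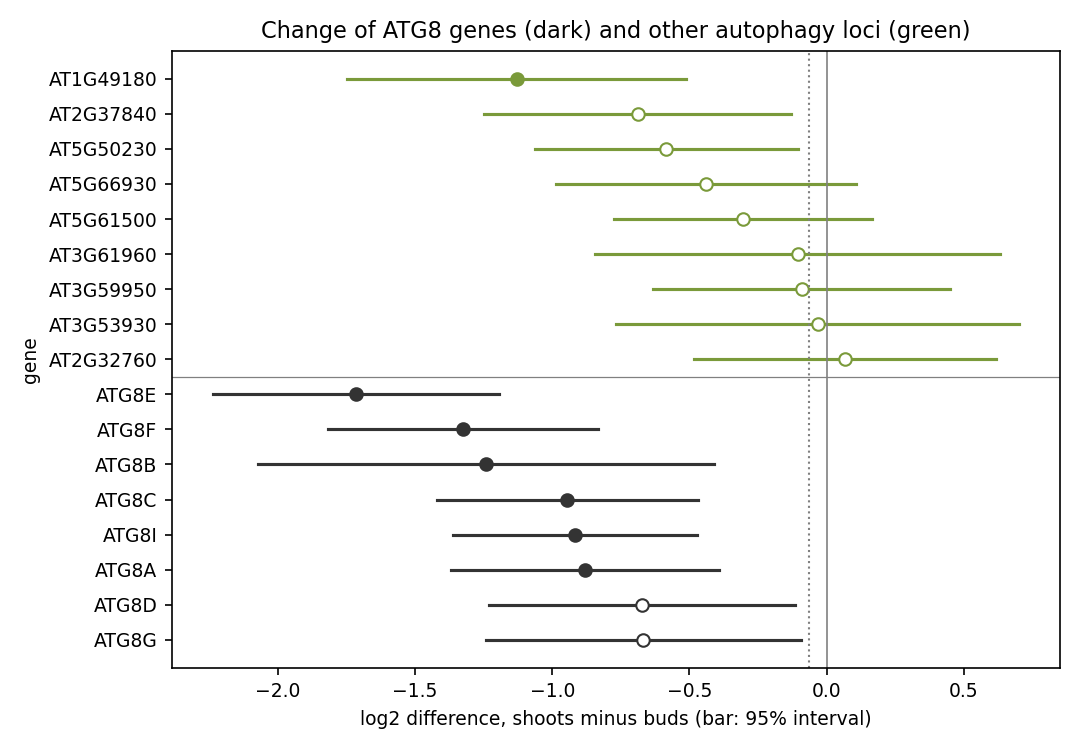
Log2 difference of shoots minus buds (points) with 95% intervals from limma (bars) for the 8 tested ATG8 genes (dark, below the line) and 9 other autophagy loci (green), filled where the adjusted p was 0.05 or less; the dotted vertical line is the median of all tested probe sets, −0.06. All 8 ATG8 points lie left of 0, from −0.67 to −1.72, while the green points run from −1.13 to 0.07.

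The calls depended most on shoot array 1. Without it, ATG8E (adjusted p = 0.0256) was the only 1 of the 8 genes to pass in limma, among 3.17% of all probe sets that still fell. ATG8C (adjusted p = 0.120) and ATG8I (adjusted p = 0.104) were lost with that array and with no other alternative tried. Signals of the members were lower on shoot array 1 than on shoot array 2 for 7 of 9 genes, against 43.8% of all tested probe sets, the exceptions being ATG8B and ATG8D. The median log2 fold change of the 8 genes without shoot array 1 was −0.84.

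**Figure D3:**
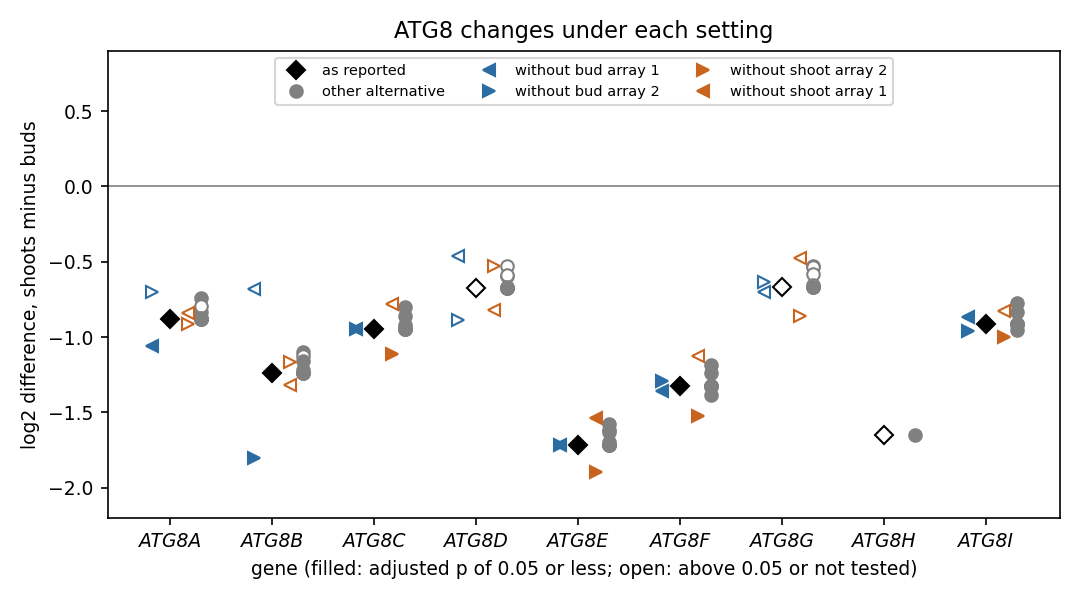
Log2 difference of shoots minus buds for each ATG8 gene as reported (diamonds), with 1 array left out (triangles) and under the other alternatives (circles), filled where the adjusted p was 0.05 or less. Every point lies below 0; only the ATG8E points are filled throughout, and the ATG8B points spread from −0.68 to −1.80.

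Set against the whole array, the members sat in the lower part of the distribution of changes. A more negative change was found for 4.81% of tested probe sets in the case of ATG8B, 9.36% for ATG8C, 9.95% for ATG8I and 10.7% for ATG8A. For ATG8D and ATG8G, which did not pass, these shares were 16.7% and 16.9%. A change of at least 2-fold was reached by 3 of the 6 genes that fell, ATG8B, ATG8E and ATG8F, and by 63.1% of all probe sets that fell.

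**Figure D4:**
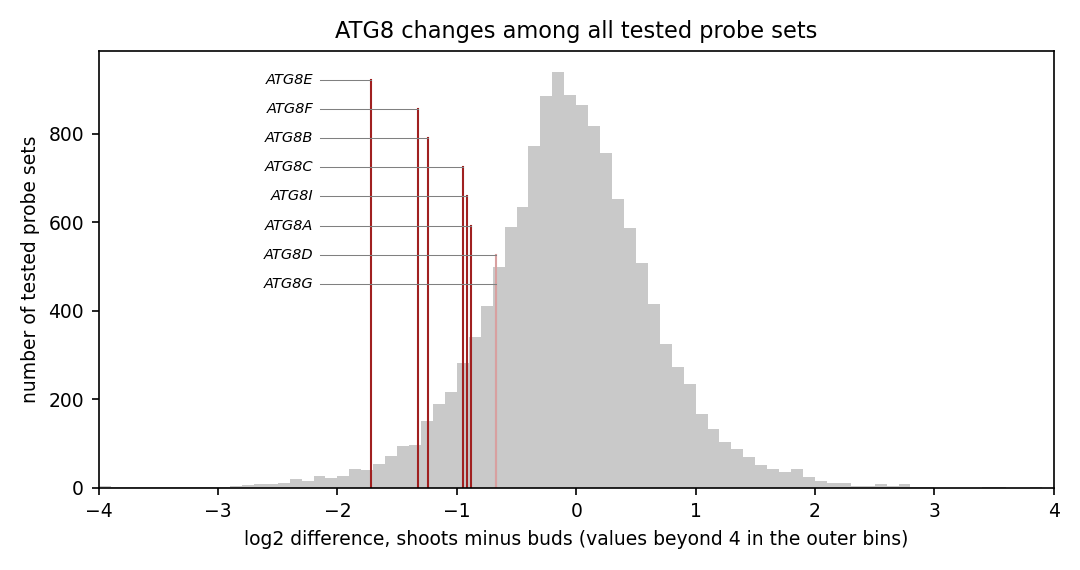
Histogram of log2 differences, shoots minus buds, of all tested probe sets (grey, number per bin), with a vertical line at each tested ATG8 gene, dark red where it passed the test and pale where it did not. ATG8E lies farthest out at −1.72, and ATG8D and ATG8G lie nearest the bulk at −0.67.

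Paralogues were compared by the ratio of their signals on each array. The ratio of ATG8E to ATG8G was 2.31 and 2.21 in buds and 1.10 and 1.09 in shoots. That of ATG8E to ATG8F was 0.236 and 0.226 in buds and 0.179 and 0.174 in shoots. Both ratios were lower on both shoot arrays, although all 3 genes had lower signals in the shoots. The ratio of ATG8D to ATG8E, with ATG8E now as the denominator, went from 0.845 and 0.628 in buds to 1.89 and 1.20 in shoots, which is again a lower share of ATG8E. ATG8F to ATG8G gave 9.77 and 9.80 in buds and 6.16 and 6.25 in shoots. The ratio of ATG8C to ATG8I stayed within its spread, at 0.554 and 0.591 in buds and 0.531 and 0.592 in shoots. These ratios are examples: of all 28 pairs of tested members, 14 had groups that did not overlap. The share among pairs of other probe sets was not computed, so this count is not read as a trait of the family.

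Of the 7 ratios of ATG8E to another tested member, 6 were lower in both shoot arrays than in both bud arrays, and only that to ATG8B overlapped. Against all other tested probe sets the same held for 95.5%, so this count is no larger than for other genes. With 2 arrays on each side an exact permutation test cannot go below a two-sided p of 0.33, so it could not show a difference for any of the 28 pairs of tested members. The fitted changes were therefore also compared through their limma standard errors, with probe sets taken as independent, a test added after the data were seen. At an unadjusted p under 0.05, 5 of the 28 pairs differed, all with ATG8E as the member that changed more, against ATG8A, ATG8C, ATG8D, ATG8G and ATG8I. All 5 rest on the same fitted change of ATG8E. The share of all tested probe sets that differ from ATG8E by this test was not computed, so the count is not read as a trait of the paralogues. The change of ATG8E was more negative than that of ATG8G by a log2 difference of −1.05 (95% interval −1.82 to −0.27). After adjustment over the 28 pairs 0 passed with these limma errors, the smallest adjusted p being 0.193, which does not show that the paralogues changed alike.

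**Figure D5:**
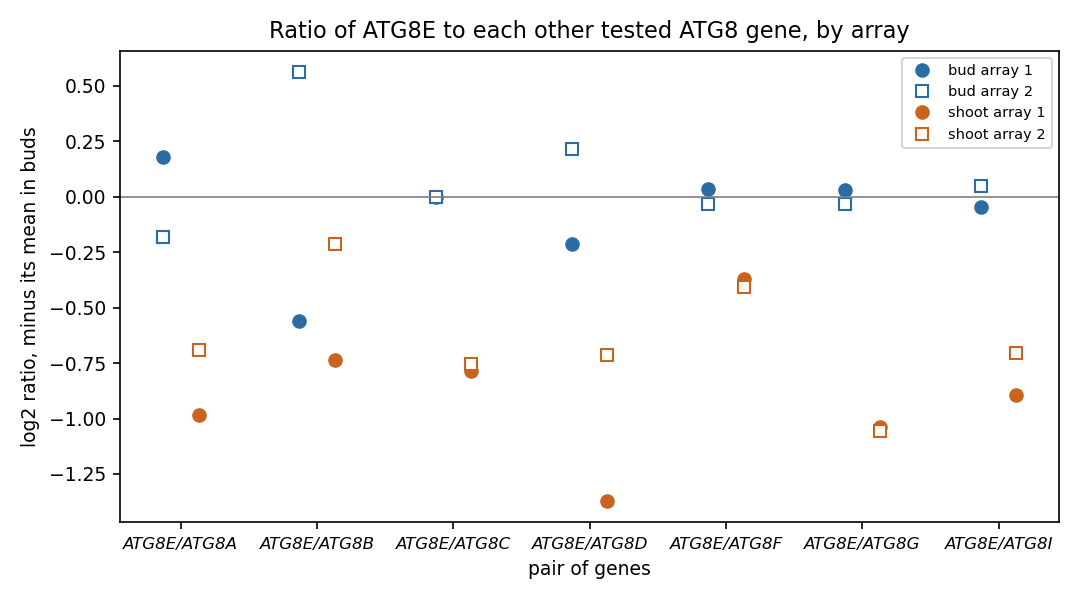
Log2 ratio of ATG8E to each of the 7 other tested ATG8 genes on bud arrays (blue) and shoot arrays (orange), array 1 filled and array 2 open, after subtraction of the mean in buds. Shoot points lie below bud points for 6 pairs, and the pair with ATG8B overlaps.

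The rest of the pathway was seen only in part. A list of 40 other autophagy loci held 11 with a named probe set, of which 9 were tested; the other 29, among them ATG5, ATG7, ATG9 and NBR1, are not analysed here. Of the 9, 1 fell and 0 rose, with a median log2 difference of −0.31, beside 12.0% of all probe sets that fell. At an unadjusted p under 0.05, 3 of the 9 were lower and 0 higher in limma, beside 20.5% and 16.8% of all probe sets.

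In the conjugation list, which acts directly on ATG8, 3 of 9 loci were tested and none passed (0 higher and 1 lower at an unadjusted p under 0.05, where 16.8% and 20.5% of all probe sets lay). ATG3, the enzyme that transfers ATG8 to its lipid, had signals of 177 and 218 in buds and 163 and 155 in shoots, with a log2 fold change of −0.31 (adjusted p = 0.317 in limma). The shoot arrays lay below the bud arrays by less than the bud arrays differed. AT5G50230 had 132 and 116 in buds and 85.3 and 80.1 in shoots, a log2 fold change of −0.58 with an adjusted p of 0.0798. The remaining tested locus, AT3G59950, read 113 and 87.3 in buds and 104 and 83.6 in shoots. Its groups overlapped (log2 fold change −0.09, adjusted p = 0.807 in limma).

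The ATG1 kinase complex, which starts autophagosome formation, had 5 tested loci of 8 listed. AT1G49180 fell 2.19-fold, from 44.5 and 51.3 in buds to 21.5 and 22.2 in shoots (limma log2 fold change −1.13, adjusted p = 0.0222). Both shoot signals lay under 23.1, so the size of this fold is uncertain, and the call was lost without bud array 2 (adjusted p = 0.0711), shoot array 1 (adjusted p = 0.113) or shoot array 2 (adjusted p = 0.0633). AT2G37840 had 122 and 85.7 in buds and 63.0 and 63.8 in shoots and did not pass (adjusted p = 0.0781), and AT5G66930 (ATG101, a subunit of this complex) had a log2 fold change of −0.44 with an adjusted p of 0.218. The other tested loci of the complex, AT3G61960 and AT3G53930, had log2 fold changes of −0.11 and −0.03 (adjusted p = 0.836 and 0.952). The lipid kinase complex had 1 tested locus, AT2G32760, with a log2 fold change of 0.07 (adjusted p = 0.862).

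The list of kinases that switch autophagy on or off, together with their subunits and partners, had 4 tested loci out of 9. The signal of a subunit or partner does not stand for that of the kinase itself. AKINBETA1, a beta subunit of SnRK1, the kinase that responds to low energy, had signals of 306 and 331 in buds and 93.3 and 89.5 in shoots. It was the single locus of the 4 to pass (limma log2 fold change −1.80, adjusted p = 0.00216), beside 12.0% of all probe sets that fell. RAPTOR1, a partner of the growth-promoting kinase TOR that holds autophagy back, gave 143 and 111 in buds and 145 and 126 in shoots. Its groups overlapped, and its log2 fold change was 0.10 (95% interval −0.41 to 0.60, adjusted p = 0.782 in limma). AT2G28060, listed as KINbeta3, read 90.5 and 102 in buds and 130 and 118 in shoots. Both of its shoot arrays lay above both bud arrays, but it did not pass (log2 fold change 0.37, adjusted p = 0.232 in limma). AT4G16360 read 163 and 176 in buds and 171 and 169 in shoots (log2 fold change 0.006, adjusted p = 0.987 in limma).

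Marker lists were too thinly annotated to give the tissue make-up. Of 12 shoot meristem markers, CLV3 and LAS had a named probe set. CLV3 lay between 1.06 and 7.32 and LAS between 15.4 and 19.6 on the 4 arrays, all under 23.1. That value is the filter on mean signal and not a detection limit, so these 2 neither bear out nor contradict the labelled bud tissue. Of 8 leaf photosynthesis markers, LHCB4.1 and RCA were tested. LHCB4.1 read 639 and 431 in buds and 849 and 710 in shoots, higher on both shoot arrays. RCA read 469 and 526 in buds and 717 and 329 in shoots, a 2.18-fold difference between shoot arrays 1 and 2. Neither passed, with log2 fold changes of 0.57 (adjusted p = 0.137) and −0.03 (adjusted p = 0.953). Of 6 senescence markers, 1 had a named probe set: SAG101, which encodes a lipase-like protein known from senescence and immunity, read 37.6 and 52.5 in buds and 18.3 and 18.6 in shoots. It fell (limma log2 fold change −1.27, adjusted p = 0.0214), with both shoot signals under 23.1 and the size of the fold therefore uncertain. The call was lost without bud array 2 (adjusted p = 0.0848), shoot array 1 (adjusted p = 0.104) or shoot array 2 (adjusted p = 0.0613). This marker moved with the ATG8 genes, and its part in their result was not tested. None of the 6 flower or 6 vascular markers had a named probe set.

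The genes most like ATG8E in pattern were not other ATG8 genes. Likeness was the Euclidean distance between log2 signals on the 4 arrays, each centred on its own mean, over 13647 other tested probe sets. The 5 nearest with a named gene outside the family were AT2G23200 (distance 0.0810), AT1G49050 (0.0816), AT1G03400 (0.101), AT2G23840 (0.127) and AT1G56300 (0.155). Their log2 fold changes ran from −1.71 to −1.68, near that of ATG8E because they were picked for likeness to it on the same arrays. AT2G23200, for example, had 114 and 121 in buds and 32.8 and 40.1 in shoots. Among the other members ATG8F was nearest, at rank 148 of 13647 (distance 0.394), followed by ATG8C at rank 828 and ATG8I at rank 943. ATG8D was farthest, at rank 2484 with a distance of 1.18. With only 4 arrays, many unrelated genes take like patterns, and the ranks are a description.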

How the data were processed

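Deposited values are linear intensities per probe set; per the submitters' processing notes they came from MAS5 in GCOS, with no version given in the sources used here. RNA was labelled with biotin from the 3′ end, per the labels' protocols. Leaving out 2% of probe sets at either end, every array averaged 100.0, so the authors' scaling hides any shift in total RNA. No detection calls were used.

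A platform annotation and the TAIR10.1 gene table named 13436 of 22746 probe sets (64 controls aside). Log2 intensities were compared with limma 3.58.1 (R 4.3.3; all 4 arrays, eBayes with intensity trend, Benjamini-Hochberg adjustment) over the 13648 probe sets in the upper 60% by mean log2 signal, without further scaling or a pseudocount. Fold changes are ratios of geometric means. The fit was tested on simulated data.

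Members and lists were chosen with earlier results of these data known. Every member is named; of other lists, loci past the threshold, otherwise up to 2 by smallest p. AT3G59950, AT2G37840, AT5G66930, AT3G61960, AT3G53930, RAPTOR1, AT2G28060, AT4G16360 and the meristem markers were added after their values were seen. The brightest probe set stood for a locus. Alternatives were 3 other scalings (array medians, quantile, 9 spiked-in controls), no filter, the upper 40%, a pseudocount of 0.908, no variance trend, a replicate block and leaving out each array. Planned promoter and protein descriptions were not run.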

Additional observations from a re-analysis of the deposited data

How the results depend on the processing

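All 95 values of the 9 ATG8 genes under the 12 alternatives were negative; 80 kept their side of the threshold, 12 calls were lost, and 3 were gained, for ATG8D and ATG8G with the replicate block and for ATG8H with no filter. The number of ATG8 genes that fell was 6 as reported and between 1 and 5 with 1 array left out, with 1 without shoot array 1, and the number that rose was 0 under every alternative. Their median log2 fold change lay between −1.06 and −0.84 with 1 array left out. Of the 95 negative signs, most were fixed beforehand. Both filter settings, the variance trend and the replicate block leave a fold change as it was. With both shoot arrays below both bud arrays, leaving out 1 array or adding a pseudocount cannot turn its sign. Only the 3 other scalings could have given a positive value, so the count of signs says little about robustness. Setting array medians equal shifted the median log2 fold change over everything tested from −0.06 to 0.08. That of the ATG8 genes moved from −0.93 to −0.79. The difference between these medians was −0.87 in both, as it must be when a constant is subtracted from each array. With quantile normalization, which can change this difference, it was −0.94. The share of calls that were higher moved from 45.9% to 61.1%, against 52.1% with quantile normalization and 53.9% with spike scaling. With 1 array left out, all probe sets gave 230 to 1181 higher and 432 to 1468 lower, and other autophagy loci 0 to 1 lower; with the upper 40% of probe sets, where AT1G49180 was not tested, 0 of these loci fell. With the replicate block 2109 probe sets rose, 2548 fell, 3 other autophagy loci fell and 8 of 8 ATG8 genes fell, against 6 without it. Deviations of same-numbered arrays correlated at 0.225, and the labels do not say that a number marks shared plants, so the numbers were not taken to pair the arrays. The cause of the lost and gained calls was not tested, except that leaving out an array leaves fewer arrays. The low signal of ATG8H and the 2 arrays in each group limit precision.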
